A study of Mus musculus with 12 samples.

Results

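The non-collagen proteins of the extracellular matrix and the enzymes that crosslink it were followed at the RNA level in mouse astrocyte cultures through 47 genes, chosen by name from the known composition of the matrix out of 54356 genes with an annotated transcript. They comprise 11 secreted glycoproteins, 14 elastic fibre genes, 4 lysyl oxidases, 3 small leucine-rich proteoglycans, 5 lecticans and link proteins, and 10 basement membrane genes. Of these, 45 had enough reads to be tested beside 14607 tested genes in all. The aggrecan gene Acan and the link protein gene Hapln1 did not. The 47 were chosen with earlier results of these data known, so their counts beside those of all genes are descriptive. The series compared astrocytes of C57BL/6 mice from cortex and from midbrain, in 12 RNA libraries. Each region had a mock group kept in growth medium and 2 groups carrying an shRNA against PTB (polypyrimidine tract binding protein, gene Ptbp1), kept for 2 or 4 weeks in neuronal differentiation medium. Each of these 6 groups had 2 libraries, and the study asked how expression moves from an astrocyte towards a neuronal pattern when PTB is depleted. The hairpin and the change of medium came together, and no mock group was kept in differentiation medium or sampled at 2 or 4 weeks, so hairpin, medium and time in culture cannot be told apart. The labels do not say whether the 2 libraries of a group came from separate cultures or animals, so the p-values speak only of the spread between these libraries, which may be technical.

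The extracellular matrix of the brain differs from that of connective tissue. Astrocytes and neurons fill the space between cells with hyaluronan bound to lecticans such as brevican and neurocan, tied together by tenascin-R and link proteins, while fibronectin, elastic fibres and laminin sheets are found mainly at blood vessels, the meninges and the surface of the brain. Astrocytes also secrete matricellular proteins, which signal to cells more than they build the matrix; Sparcl1 and the thrombospondins promote the formation of synapses, and Sparc opposes Sparcl1 in that role. Cultured astrocytes are known to secrete fibronectin and laminin as well.

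Promoter sequence was taken from the RefSeq table (GRCm38.p6), as the 250 bases before each annotated start. It held 35 promoters for 27 of the 47 genes. Of these 35 windows, 19 hold bases of the gene's own GENCODE exons, which are left out where a sequence is shown. The sequences of Bgn, Fbln1 and Fbln5 are shown because Bgn fell and Fbln5 rose in all 4 comparisons with mock and Fbln1 was among the leading genes after shPTB, and those of Lama2 and Nid1 because each holds one of the motifs searched. Capitals mark the motif, a CArG box (the serum response factor element) in Lama2 and GGAATG (the TEAD element) in Nid1, found on either strand, and the sequences run 5′ to 3′ on the strand of the gene. The window of Lama2 lies in an intron of the longer GENCODE gene, that of Nid1 is shown up to the GENCODE start, and the other 3 lie before it.
Bgn (chrX:73483351-73483600, plus strand): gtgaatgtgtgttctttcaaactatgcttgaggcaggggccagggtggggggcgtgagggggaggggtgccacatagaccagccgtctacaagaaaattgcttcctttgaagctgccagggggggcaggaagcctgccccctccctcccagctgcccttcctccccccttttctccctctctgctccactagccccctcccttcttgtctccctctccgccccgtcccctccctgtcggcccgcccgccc
Fbln1 (chr15:85205699-85205948, plus strand): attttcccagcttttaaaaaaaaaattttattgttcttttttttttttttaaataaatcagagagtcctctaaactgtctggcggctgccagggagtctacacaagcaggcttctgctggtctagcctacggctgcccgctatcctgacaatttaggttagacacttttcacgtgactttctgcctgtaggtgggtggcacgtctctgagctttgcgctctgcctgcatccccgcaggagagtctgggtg
Fbln5 (chr12:101819120-101819369, minus strand): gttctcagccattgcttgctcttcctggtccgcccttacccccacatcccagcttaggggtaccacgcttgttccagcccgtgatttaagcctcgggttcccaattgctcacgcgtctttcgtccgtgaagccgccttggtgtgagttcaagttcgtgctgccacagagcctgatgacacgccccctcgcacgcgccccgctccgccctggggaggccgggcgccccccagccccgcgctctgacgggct
Lama2 (chr10:27616943-27617192, minus strand): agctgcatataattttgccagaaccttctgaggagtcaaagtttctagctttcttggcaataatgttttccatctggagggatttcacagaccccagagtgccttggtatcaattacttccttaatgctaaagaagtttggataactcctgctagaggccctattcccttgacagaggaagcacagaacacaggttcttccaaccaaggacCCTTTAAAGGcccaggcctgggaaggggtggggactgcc
Nid1 (chr13:13437352-13437550, plus strand): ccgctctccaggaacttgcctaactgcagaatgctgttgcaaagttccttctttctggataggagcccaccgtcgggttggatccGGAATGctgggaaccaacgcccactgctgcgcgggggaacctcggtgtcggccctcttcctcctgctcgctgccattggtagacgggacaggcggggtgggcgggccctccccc
TGANTCA (AP-1) was in 1 of the 35 promoters (Efemp1) and in 6.75% of all 32851 promoters of the same length. GGAATG was in 3 of 35 (Acan, Mfap2 and Nid1) and in 12.6% of all, GTCTAGAC (SMAD) in 0 of 35 and in 0.167% of all, and the CArG box in 1 of 35 (Lama2) and in 1.47% of all. These are matches of letters in a window and no measure of binding, and none of the motifs overlaps another in its letters.

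Levels are given in CPM, a gene's reads per 1000000 reads of the library after TMM scaling. They compare libraries for 1 gene, and not genes with each other. The libraries held 6022098 to 11385761 estimated reads, and 3 reads correspond to 0.163 to 0.576 CPM. Ptbp1 stood at 173 and 251 CPM in cortical mock, 73 and 73.5 CPM at 2 weeks and 89.2 and 90.5 CPM at 4 weeks. In midbrain it was at 208 and 249.98 CPM in mock, 105 and 90.8 CPM at 2 weeks and 169 and 155 CPM at 4 weeks. Its log2 fold change against mock was -1.53 ± 0.21, -1.24 ± 0.21 and -1.22 ± 0.21 (adjusted p = 0.000267, 0.000814 and 0.00122), and in midbrain at 4 weeks it was -0.50 ± 0.20 with an adjusted p of 0.0744. All 10 astrocyte markers had reads in every group. Their sum was 13349 and 22658 CPM in the cortical mock libraries, 15605 to 16255 CPM at 2 weeks and 15776.6 to 15965.5 CPM at 4 weeks. In midbrain it was 11580 to 15177 CPM in mock, 8475 to 8870 CPM at 2 weeks and 10928 to 11402 CPM at 4 weeks. Mitochondrial genes took 16.8 to 22.7% of reads in mock libraries and 36.4 to 48.3% after shPTB. The 2 mock libraries of a group differed more than the shPTB pairs: 18.4% of genes in cortex and 15.8% in midbrain were more than 2-fold apart, against 6.44 to 10.5% in shPTB groups. Summed markers of fibroblasts, leptomeninges and pericytes (18 genes, none of them among the 47) stood at 1182 to 1457 CPM in cortical and 2462 to 2805 CPM in midbrain mock libraries. After shPTB they were 290.4 to 294 and 177 to 184 CPM in cortex, and 563 to 582 and 464 to 473 CPM in midbrain, at 2 and 4 weeks. Single markers went both ways: of the 16 tested, 6 rose and 8 fell in cortex at 2 weeks and 2 and 7 at 4 weeks, and in midbrain 8 rose and 6 fell, then 8 and 8. At least 16 of the 18 had reads in each group; Slc22a6 was at 0 in both mock groups, Col3a1 and Kcnj8 in cortex at 4 weeks and Abcc9 in midbrain at 4 weeks. Microglial markers (10 genes) ran from 1346 to 2033 CPM in mock and from 81.5 to 164.7 CPM in shPTB libraries, and proliferation genes (10 genes) from 198 to 215 and from 5.76 to 27.3 CPM. Ependymal and choroid plexus markers (8 genes) summed to 152 to 210.2 CPM in cortical mock, 21.4 to 21.7 CPM at 2 weeks and 20.4 to 24 CPM at 4 weeks, and in midbrain at 158 to 197, 79.2 to 80.6 and 78.9 to 79.3 CPM. Endothelial markers (8 genes, with Tek and Cldn5 at 0 in both mock groups) were at 7.32 to 9.07 CPM in cortical mock, 4.54 to 6.55 CPM at 2 weeks and 1.35 to 1.65 CPM at 4 weeks, and in midbrain at 16.7 to 24.3, 9.62 to 10.8 and 7.18 to 7.63 CPM. Neuron markers (10 genes) stood at 183 to 230.2 CPM in cortical mock, 133 to 144 CPM at 2 weeks and 99.2 to 106 CPM at 4 weeks, and in midbrain at 159 to 175, 131 to 134 and 145 to 157 CPM; of 9 tested, 5 rose and 3 fell in cortex at 2 weeks, 2 and 3 at 4 weeks, and in midbrain 2 and 3, then 2 and 5. Over all tested genes 15.9 to 18.7% rose and 14.7 to 20.9% fell across the 4 comparisons with mock. In these bulk libraries fewer cells of a type and less RNA per cell cannot be told apart. The part of these marker shifts in the values below was not tested.

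Most of the matrix genes that passed the test against mock were lower after shPTB, in both regions and at both times. In cortex 9 of 45 rose and 20 fell at 2 weeks, and 5 rose and 24 fell at 4 weeks. Among all tested genes 17.5% rose and 17.6% fell at 2 weeks, and 18.5% and 20.9% at 4 weeks. In midbrain 8 rose and 23 fell at 2 weeks, and 8 rose and 24 fell at 4 weeks, where 15.9% and 14.7% of all genes did so at 2 weeks and 18.7% and 20.4% at 4 weeks. A gene rose or fell where its adjusted p in edgeR's quasi-likelihood test, with Benjamini-Hochberg adjustment over all 14607 genes, was under 0.05. The median log2 fold change of the 45 genes was -1.13 and -1.51 in cortex and -1.27 and -1.54 in midbrain at 2 and 4 weeks, beside -0.11, -0.12, -0.07 and -0.15 over all tested genes. Without the second cortical shPTB library of 2 weeks, 16 genes were called there in place of 29, 7 higher and 9 lower. The mock and shPTB libraries did not overlap for 38 and 41 of the 45 tested genes in cortex and for 42 and 39 in midbrain, beside 66.3, 68.1, 66.3 and 70.2% of all tested genes. The 2 times of a region share its mock libraries, so their counts are not independent of each other. The 45 genes were also chosen with earlier results of these data known. Scaling to total reads in place of TMM shifted the median over all genes to -0.85 and -1.21 in cortex and to -0.74 and -1.01 in midbrain. Under it 4 matrix genes rose and 30 fell in cortex at 2 weeks, 1 and 35 at 4 weeks, and in midbrain 3 and 30, then 5 and 36. The share of higher genes among all calls then was 16.5, 9.28, 17.1 and 13.1%, against 49.8, 47, 51.8 and 47.8% with TMM, in the order cortex 2 and 4 weeks, midbrain 2 and 4 weeks. Gene positions are those of GENCODE M21 on GRCm38. A log2 fold change below is relative to the TMM scaling, and its ± is the standard error; the ± of a mean is the SD of 2 libraries. Genes with 1 to 3 reads in a group are given as a ratio of reads with an exact 95% interval that covers counting error only. With 1 library left out, 14 and 20 of the 29 called genes in cortex and 21 of 31 and 26 of 32 in midbrain kept their call whichever library it was. Where a call ends with 1 library left out, or its value moves more than 1.5 times, the library is named by group and number.

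**Figure D1:**
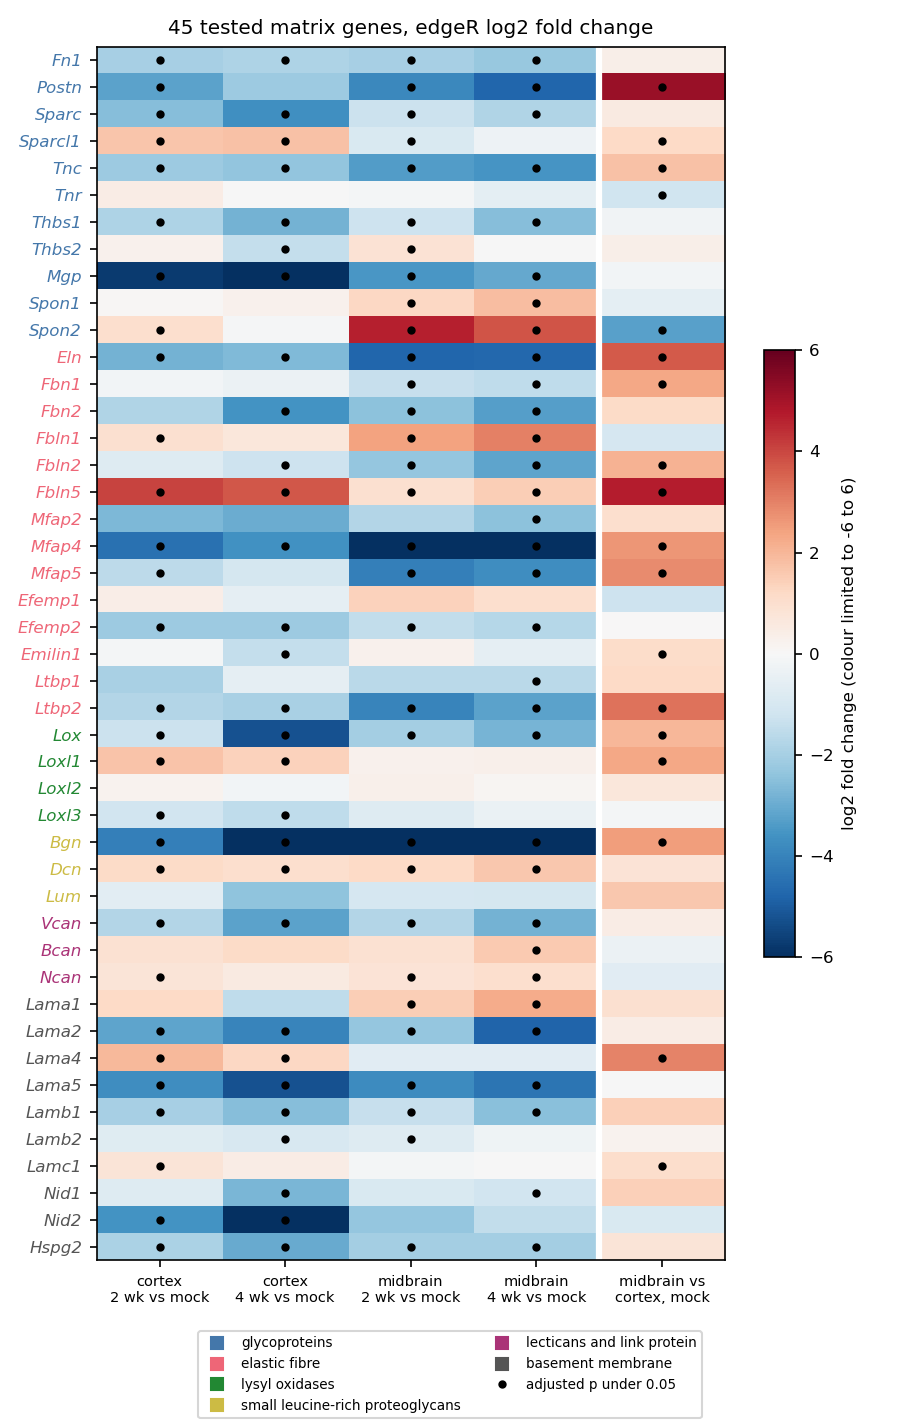
Log2 fold change (colour scale) of the 45 tested matrix genes, grouped by role, in the 4 comparisons with mock and between the 2 mock groups; a dot marks an adjusted p under 0.05. The lower calls outnumber the higher ones in each of the 4 comparisons with mock (20, 24, 23 and 24 lower), and the column between the mock groups holds 16 higher and 2 lower calls in midbrain.

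Sparc, a collagen-binding matricellular glycoprotein of cultured astrocytes (ENSMUSG00000018593.13, chr11:55394500-55423183, minus strand), had the highest level per length of the 47 genes in both mock groups and fell in both regions. Sparc stood at 1751 and 2004 CPM in cortical mock, 323 and 324 CPM at 2 weeks and 146 and 149 CPM at 4 weeks. In midbrain it stood at 2671 and 2809 CPM in mock, 1157 and 1109.8 CPM at 2 weeks and 806 and 774 CPM at 4 weeks. No shPTB library reached a mock library, and the 2 libraries of each shPTB group lay close together. Its log2 fold change in cortex was -2.54 ± 0.19 at 2 weeks and -3.67 ± 0.20 at 4 weeks, adjusted p = 4.55e-06 and 5.17e-07. In midbrain it was -1.27 ± 0.18 at 2 weeks and -1.79 ± 0.18 at 4 weeks, adjusted p = 0.000402 and 3.4e-05. Sparcl1, or hevin, an astrocyte protein that promotes synapse formation (ENSMUSG00000029309.7, chr5:104079111-104113733, minus strand), rose in cortex and fell in midbrain at 2 weeks. It stood at 58.2 and 45.3 CPM in cortical mock, 168 and 157 CPM at 2 weeks and 172 and 178 CPM at 4 weeks. The values in midbrain were 136 and 97.6 CPM in mock, 59 and 66 CPM at 2 weeks and 96.7 and 90.9 CPM at 4 weeks. All 4 cortical shPTB libraries lay above cortical mock, and all 4 midbrain shPTB libraries below midbrain mock. Sparcl1 rose in cortex (1.65 ± 0.21 at 2 weeks and 1.76 ± 0.21 at 4 weeks, adjusted p = 0.000147 and 7.61e-05) and fell in midbrain at 2 weeks (-0.90 ± 0.20, adjusted p = 0.00637). In midbrain at 4 weeks it was at -0.32 ± 0.20, adjusted p = 0.23. Fn1 encodes fibronectin, which cells bind through integrins (ENSMUSG00000026193.15, chr1:71585520-71653200, minus strand). It had 46.4 and 47 CPM in cortical mock, 13.9 and 9.41 CPM at 2 weeks and 12.5 and 13.3 CPM at 4 weeks. Midbrain gave 57.7 and 59.8 CPM in mock, 14.4 and 15.6 CPM at 2 weeks and 10.4 and 13.5 CPM at 4 weeks. Fn1 libraries of a mock group were nearly equal and far above every shPTB library. It fell in cortex (-2.01 ± 0.22 at 2 weeks and -1.86 ± 0.21 at 4 weeks, adjusted p = 5.19e-05 and 6.65e-05) and in midbrain (-1.97 ± 0.21 at 2 weeks and -2.30 ± 0.21 at 4 weeks, adjusted p = 5.07e-05 and 1.71e-05). Tnc encodes tenascin-C, a glycoprotein of developing and injured brain. Tnc had 3.25 and 5.73 CPM in cortical mock, 1.31 and 0.649 CPM at 2 weeks and 0.549 and 1.15 CPM at 4 weeks. Midbrain had 12.1 and 17.8 CPM in mock, 1.47 and 1.43 CPM at 2 weeks and 0.967 and 1.61 CPM at 4 weeks. Mock and shPTB libraries did not overlap, and Tnc fell in cortex (-2.20 ± 0.49 at 2 weeks and -2.38 ± 0.51 at 4 weeks, adjusted p = 0.00543 and 0.0036) and in midbrain (-3.35 ± 0.42 at 2 weeks and -3.52 ± 0.43 at 4 weeks, adjusted p = 0.00016 and 0.000118). Tnr encodes tenascin-R, which crosslinks lecticans around neurons. Tnr had 18.6 and 19.6 CPM in cortical mock, 26.2 and 25.3 CPM at 2 weeks and 20.9 and 16.7 CPM at 4 weeks. Midbrain had 9.55 and 6.93 CPM in mock, 8.71 and 6.29 CPM at 2 weeks and 4.01 and 7.1 CPM at 4 weeks. It passed no test against mock: its log2 fold changes were 0.43 ± 0.26 and -0.02 ± 0.27 in cortex and -0.14 ± 0.28 and -0.57 ± 0.29 in midbrain (adjusted p = 0.23, 0.957, 0.733 and 0.142). Single libraries decided calls in cortex at 2 weeks: Tnc (shPTB 2, adjusted p = 0.0722). In cortex at 4 weeks, 1 library less ended the calls of Tnc (shPTB 1, adjusted p = 0.0503). The calls that 1 library decided in midbrain at 2 weeks were those of Sparcl1 (shPTB 1, adjusted p = 0.0716). Without 1 library, log2 fold changes moved to -2.996 (without shPTB 2) for Tnc in cortex at 4 weeks. Calls also ended with scaling to total reads for Sparcl1 in cortex at 4 weeks (adjusted p = 0.0633). Fn1, Tnc and Tnr share exonic bases with an antisense gene, and no source used here says that counting used strand.

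The thrombospondins and spondins, a second group of secreted glycoproteins, moved in both directions. Thbs1 and Thbs2 encode thrombospondins, which astrocytes secrete and which promote synapse formation. Thbs1 lay between 3.85 and 6.78 CPM in mock and between 0.549 and 2.65 CPM in shPTB libraries, and it fell in all 4 comparisons (adjusted p = 0.00626, 0.000798, 0.0293 and 0.00113). It shares exonic bases with an antisense gene. Thbs2 had 3.83 and 5.49 CPM in cortical mock, 4.49 and 6.49 CPM at 2 weeks and 1.65 and 1.73 CPM at 4 weeks. In midbrain its values were 5.05 and 7.0 CPM in mock, 10.6 and 11 CPM at 2 weeks and 6.91 and 4.95 CPM at 4 weeks. Thbs2 overlapped mock in cortex at 2 weeks and in midbrain at 4 weeks, where its log2 fold changes were 0.25 ± 0.31 and -0.02 ± 0.29 (adjusted p = 0.552 and 0.985). It fell in cortex at 4 weeks (-1.45 ± 0.36, adjusted p = 0.0088) and rose in midbrain at 2 weeks (0.85 ± 0.28, adjusted p = 0.0408). Mgp encodes matrix Gla protein, an inhibitor of calcification. It had 18 and 57.4 CPM in cortical mock, 0.374 and 0.974 CPM at 2 weeks and 0 and 0.192 CPM at 4 weeks. Its midbrain values were 23.9 and 43.1 CPM in mock, 3.06 and 2.87 CPM at 2 weeks and 4.28 and 3.62 CPM at 4 weeks. The 2 mock libraries lay 3.19-fold apart in cortex and 1.80-fold in midbrain, and all shPTB libraries lay below them. Mgp fell in cortex at 2 weeks (-5.74 ± 0.70, adjusted p = 0.000128), and at 4 weeks its reads were 369.5-fold lower (95% counting interval 66.2 to 14609.8, adjusted p = 5.33e-05). Mgp fell in midbrain too (-3.49 ± 0.54 at 2 weeks and -3.08 ± 0.53 at 4 weeks, adjusted p = 0.000704 and 0.00111). Postn encodes periostin, a protein of fibroblast matrix. It had 0.988 and 0.796 CPM in cortical mock, 0 and 0.162 CPM at 2 weeks and 0.366 and 0 CPM at 4 weeks. Midbrain had 35.8 and 30.1 CPM in mock, 2.94 and 1.54 CPM at 2 weeks and 1.52 and 0.937 CPM at 4 weeks. Postn was over 3 CPM in midbrain mock alone. It fell in midbrain (-3.87 ± 0.39 at 2 weeks and -4.74 ± 0.43 at 4 weeks, adjusted p = 3.95e-05 and 1.48e-05) and in cortex at 2 weeks, from 27 reads to 1 read, 10.4-fold lower (95% counting interval 1.72 to 427, adjusted p = 0.026); at 4 weeks in cortex 2 reads gave an adjusted p of 0.0623. Spon1, or F-spondin, guides growing axons. It had 56.4 and 62.1 CPM in cortical mock, 60.3 and 63.9 CPM at 2 weeks and 74.4 and 67.3 CPM at 4 weeks. In midbrain it had 39 and 40.8 CPM in mock, 97.3 and 92.4 CPM at 2 weeks and 149 and 138 CPM at 4 weeks. Every midbrain shPTB library was above midbrain mock. Spon1 rose in midbrain (1.25 ± 0.16 at 2 weeks and 1.84 ± 0.16 at 4 weeks, adjusted p = 0.000183 and 1.02e-05) and was at 0.07 ± 0.16 at 2 weeks and 0.26 ± 0.16 at 4 weeks in cortex (adjusted p = 0.761 and 0.218). Spon2, or mindin, is an F-spondin relative that binds microbes and integrins (ENSMUSG00000037379.7, chr5:33198184-33218455, minus strand). It stood at 16.9 and 20.8 CPM in cortical mock, 38.8 and 36 CPM at 2 weeks and 17 and 18.3 CPM at 4 weeks. Midbrain libraries had 1.68 and 2.31 CPM in mock, 50.1 and 50.3 CPM at 2 weeks and 26.5 and 27.7 CPM at 4 weeks. Midbrain mock was the lowest of the 6 groups, and midbrain at 2 weeks the highest. Spon2 rose in midbrain (4.65 ± 0.22 at 2 weeks and 3.76 ± 0.22 at 4 weeks, adjusted p = 3.28e-07 and 6.42e-07) and in cortex at 2 weeks (0.99 ± 0.19, adjusted p = 0.00208), and was at -0.09 ± 0.19 in cortex at 4 weeks (adjusted p = 0.732). Over the 11 glycoproteins, 2 rose and 6 fell in cortex at 2 weeks and 1 and 6 at 4 weeks, and in midbrain 3 rose and 7 fell at 2 weeks and 2 and 6 at 4 weeks. Among all tested genes the shares in these comparisons were 15.9 to 18.7% higher and 14.7 to 20.9% lower. Without 1 library, edgeR no longer called in cortex at 2 weeks Thbs1 (shPTB 1, adjusted p = 0.0573) and Postn (mock 1, shPTB 1 and shPTB 2, 0.0712, 0.153 and 0.0622). Single libraries decided calls in cortex at 4 weeks: Thbs2 (shPTB 1 and shPTB 2, adjusted p = 0.0644 and 0.0541). In midbrain at 2 weeks, 1 library less ended the calls of Thbs1 (mock 1, shPTB 1 and shPTB 2, adjusted p = 0.204, 0.194 and 0.0719) and Thbs2 (mock 1, shPTB 1 and shPTB 2, 0.209, 0.14 and 0.16). By leaving out 1 library, values moved to -6.36 (without mock 1), -4.68 (without mock 2) and -6.61 (without shPTB 2) for Mgp in cortex at 2 weeks and -3.47 (without shPTB 2) for Thbs1 in cortex at 4 weeks. Other settings ended calls with scaling to total reads for Spon2 in cortex at 2 weeks and Thbs2 in midbrain at 2 weeks (adjusted p = 0.192 to 0.546). Under other settings calls ended with an offset for average transcript length for Postn in cortex at 2 weeks, Thbs2 and Mgp in midbrain at 2 weeks and Mgp in midbrain at 4 weeks (adjusted p = 0.065 to 0.286). Apart from this, calls ended in DESeq2 for Postn in cortex at 2 weeks and Thbs1 and Thbs2 in midbrain at 2 weeks (adjusted p = 0.0599 to 0.0977). Calls also ended with no count filter for Thbs2 in midbrain at 2 weeks (adjusted p = 0.0778). Other settings ended calls with the spread of the compared groups alone for Thbs1 and Thbs2 in midbrain at 2 weeks (adjusted p = 0.0714 to 0.0785).

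More of the microfibril and elastin genes fell than rose after shPTB, and in midbrain most of them fell. Of 14 elastic fibre genes tested, 2 rose and 5 fell in cortex at 2 weeks and 1 and 7 at 4 weeks, and in midbrain 2 rose and 8 fell at 2 weeks and 2 and 10 at 4 weeks. Beside these, 15.9 to 18.7% of all tested genes rose and 14.7 to 20.9% fell in the same comparisons. Eln encodes elastin. Eln had 7.38 and 9.07 CPM in cortical mock, 1.87 and 0.487 CPM at 2 weeks and 1.83 and 0.769 CPM at 4 weeks. Midbrain had 107 and 102 CPM in mock, 3.17 and 4.63 CPM at 2 weeks and 3.45 and 4.42 CPM at 4 weeks. Mock and shPTB did not overlap, and Eln fell in cortex (-2.83 ± 0.44 at 2 weeks and -2.63 ± 0.44 at 4 weeks, adjusted p = 0.000674 and 0.000792) and in midbrain (-4.74 ± 0.36 at 2 weeks and -4.73 ± 0.36 at 4 weeks, adjusted p = 5.12e-06 and 4.37e-06). Fbn1 encodes fibrillin, the backbone of microfibrils. It had 10.1 and 13.9 CPM in cortical mock, 10.1 and 11 CPM at 2 weeks and 9.16 and 9.42 CPM at 4 weeks. Midbrain had 53.3 and 68.1 CPM in mock, 23 and 23.1 CPM at 2 weeks and 18.2 and 23.6 CPM at 4 weeks. The 2-week cortical libraries overlapped cortical mock, and the midbrain shPTB libraries were all under the lower midbrain mock library. Fbn1 fell in midbrain (-1.40 ± 0.21 at 2 weeks and -1.54 ± 0.22 at 4 weeks, adjusted p = 0.000631 and 0.000292), and in cortex it was at -0.18 ± 0.23 at 2 weeks and -0.37 ± 0.23 at 4 weeks, adjusted p = 0.57 and 0.233. Mfap4 and Mfap5 encode microfibril-associated proteins. Mfap4 had 6.22 and 5.89 CPM in cortical mock, 0.374 and 0.162 CPM at 2 weeks and 0.366 and 0.576 CPM at 4 weeks. Its midbrain levels were 38.2 and 36.8 CPM in mock, 0.566 and 0.331 CPM at 2 weeks and 0.276 and 0.402 CPM at 4 weeks. All 8 shPTB libraries were under 1 CPM. Mfap4 fell in midbrain (-6.35 ± 0.31 at 2 weeks and -6.73 ± 0.33 at 4 weeks, adjusted p = 3.46e-07 and 3.1e-07) and in cortex at 4 weeks (-3.66 ± 0.36, adjusted p = 2.52e-05). At 2 weeks in cortex, with 3 reads, it was 23.3-fold lower (95% counting interval 7.85 to 114, adjusted p = 1.61e-05). Mfap5 had 5.93 and 14.9 CPM in cortical mock, 2.43 and 4.38 CPM at 2 weeks and 5.13 and 4.8 CPM at 4 weeks. In midbrain it stood at 46.2 and 102 CPM in mock, 3.51 and 4.97 CPM at 2 weeks and 6.36 and 4.69 CPM at 4 weeks. The second mock library held 2.51-fold the first in cortex and 2.21-fold in midbrain, and all shPTB libraries were lower than either. Mfap5 fell in midbrain (-4.12 ± 0.50 at 2 weeks and -3.74 ± 0.50 at 4 weeks, adjusted p = 0.000148 and 0.000207) and in cortex at 2 weeks (-1.58 ± 0.53, adjusted p = 0.0384), and was at -1.05 ± 0.51 at 4 weeks (adjusted p = 0.124). Ltbp2 encodes a microfibril protein of the latent TGF-beta binding family. It had 9.82 and 22.4 CPM in cortical mock, 5.43 and 4.06 CPM at 2 weeks and 5.13 and 3.27 CPM at 4 weeks. Midbrain had 90.9 and 219 CPM in mock, 10.6 and 9.05 CPM at 2 weeks and 16.4 and 17.1 CPM at 4 weeks. Its mock libraries lay 2.29-fold and 2.41-fold apart, again with all shPTB libraries lower. Ltbp2 fell in cortex (-1.76 ± 0.49 at 2 weeks and -1.93 ± 0.50 at 4 weeks, adjusted p = 0.017 and 0.0109) and in midbrain (-3.97 ± 0.47 at 2 weeks and -3.20 ± 0.45 at 4 weeks, adjusted p = 0.000115 and 0.000303). The low genes of this group lay at 0 to 15.1 CPM. Fbn2 fell in 3 comparisons (cortex at 4 weeks, adjusted p = 0.0136, from 38 reads to 1, 13.6-fold lower (95% counting interval 2.3 to 551), and midbrain, 0.0114 and 0.00373). Mfap2 and Ltbp1 fell in midbrain at 4 weeks (adjusted p = 0.0385 and 0.0495), and Efemp1, at 0.449 to 4.22 CPM, passed no test (lowest adjusted p = 0.179). The calls that 1 library decided in cortex at 2 weeks were those of Mfap5 (mock 2, shPTB 1 and shPTB 2, adjusted p = 0.233, 0.217 and 0.0801) and Ltbp2 (mock 2, shPTB 1 and shPTB 2, 0.0962, 0.0664 and 0.128). Without 1 library, edgeR no longer called in cortex at 4 weeks Fbn2 (shPTB 2, adjusted p = 0.0991) and Ltbp2 (mock 2 and shPTB 2, 0.0624 and 0.0965). Single libraries decided calls in midbrain at 2 weeks: Fbn2 (mock 2, shPTB 1 and shPTB 2, adjusted p = 0.0521, 0.0682 and 0.0931). In midbrain at 4 weeks, 1 library less ended the calls of Mfap2 (mock 1, shPTB 1 and shPTB 2, adjusted p = 0.42, 0.157 and 0.161) and Ltbp1 (mock 1, shPTB 1 and shPTB 2, 0.554, 0.156 and 0.203). Single libraries moved log2 fold changes to -4.05 (without shPTB 1) and -2.13 (without shPTB 2) for Eln in cortex at 2 weeks and -0.78 (without mock 2) for Mfap5 in cortex at 2 weeks. Without 1 library, log2 fold changes moved to -1.06 (without mock 2) for Ltbp2 in cortex at 2 weeks and -3.40 (without shPTB 1) for Eln in cortex at 4 weeks. By leaving out 1 library, values moved to -1.22 (without mock 2) for Ltbp2 in cortex at 4 weeks and -3.45 (without mock 2) for Mfap5 in midbrain at 2 weeks. Single libraries moved log2 fold changes to -3.21 (without mock 2) for Ltbp2 in midbrain at 2 weeks and -4.26 (without shPTB 1) for Fbn2 in midbrain at 4 weeks. Without 1 library, log2 fold changes moved to -0.92 (without mock 1) and -3.20 (without mock 2) for Mfap2 in midbrain at 4 weeks and -3.07 (without mock 2) for Mfap5 in midbrain at 4 weeks. By leaving out 1 library, values moved to -0.54 (without mock 1) and -2.20 (without mock 2) for Ltbp1 in midbrain at 4 weeks and -2.44 (without mock 2) for Ltbp2 in midbrain at 4 weeks. Under other settings calls ended with an offset for average transcript length for Mfap5 and Ltbp2 in cortex at 2 weeks, Ltbp2 in cortex at 4 weeks and Mfap2 and Ltbp1 in midbrain at 4 weeks (adjusted p = 0.0549 to 0.307). Apart from this, calls ended in DESeq2 for Fbn2 in cortex at 4 weeks and Ltbp1 in midbrain at 4 weeks (adjusted p = 0.0588 to 0.0994). Calls also ended with the spread of the compared groups alone for Mfap5 in cortex at 2 weeks and Ltbp1 in midbrain at 4 weeks (adjusted p = 0.0564 to 0.108). Eln, Fbn1, Fbn2, Mfap4 (with Mapk7) and Ltbp2 share exonic bases with an antisense gene.

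The fibulins did not move as a block. Fbln1, which binds fibronectin and laminin and sits in elastic fibres (ENSMUSG00000006369.14, chr15:85205949-85286535, plus strand), had 88.6 and 164 CPM in cortical mock, 236 and 249 CPM at 2 weeks and 209 and 199 CPM at 4 weeks. Midbrain libraries had 46.9 and 78.4 CPM in mock, 328 and 336 CPM at 2 weeks and 538 and 495 CPM at 4 weeks. The midbrain shPTB libraries at 4 weeks were the highest of the 12. Fbln1 rose in midbrain (2.41 ± 0.31 at 2 weeks and 3.04 ± 0.31 at 4 weeks, adjusted p = 0.000187 and 3.57e-05) and in cortex at 2 weeks (0.94 ± 0.29, adjusted p = 0.0277), and was at 0.69 ± 0.29 in cortex at 4 weeks (adjusted p = 0.0813). Fbln5, which tethers elastin and lysyl oxidases to microfibrils (ENSMUSG00000021186.9, chr12:101746565-101819055, minus strand), had 4.65 and 5.49 CPM in cortical mock, 82.6 and 83.3 CPM at 2 weeks and 67 and 68.4 CPM at 4 weeks. In midbrain there were 122 and 140.3 CPM in mock, 243 and 269.8 CPM at 2 weeks and 369.99 and 361 CPM at 4 weeks. Cortical mock was the lowest group, and all shPTB libraries were above the mock libraries of their region. It rose in cortex (4.03 ± 0.19 at 2 weeks and 3.74 ± 0.19 at 4 weeks, adjusted p = 2.91e-07 and 3.81e-07) and in midbrain (0.97 ± 0.17 at 2 weeks and 1.48 ± 0.17 at 4 weeks, adjusted p = 0.00138 and 6.75e-05). Fbln2 had 6.04 and 3.58 CPM in cortical mock, 2.62 and 3.08 CPM at 2 weeks and 2.56 and 1.54 CPM at 4 weeks. Midbrain gave 24.1 and 16.7 CPM in mock, 4.19 and 4.08 CPM at 2 weeks and 2.49 and 2.01 CPM at 4 weeks. Fbln2 fell in midbrain (-2.30 ± 0.31 at 2 weeks and -3.18 ± 0.34 at 4 weeks, adjusted p = 0.000325 and 4.96e-05) and in cortex at 4 weeks (-1.23 ± 0.37, adjusted p = 0.0227), and was at -0.76 ± 0.35 at 2 weeks (adjusted p = 0.117). Efemp2, or fibulin-4, needed to crosslink elastin, had 25.8 and 20.0 CPM in cortical mock, 5.99 and 4.06 CPM at 2 weeks and 4.76 and 5.38 CPM at 4 weeks. In midbrain it had 25.7 and 21.4 CPM in mock, 9.05 and 8.06 CPM at 2 weeks and 6.22 and 7.9 CPM at 4 weeks. The shPTB libraries were all below mock, and Efemp2 fell in cortex (-2.20 ± 0.26 at 2 weeks and -2.18 ± 0.26 at 4 weeks, adjusted p = 9.63e-05 and 8.18e-05) and in midbrain (-1.46 ± 0.24 at 2 weeks and -1.73 ± 0.24 at 4 weeks, adjusted p = 0.000908 and 0.000282). Its exons overlap Mus81 on the other strand, and 8.51% of the short words in its 3′ sequence also occur in another gene. Emilin1, a glycoprotein between elastin and microfibrils, had 10.5 and 7.56 CPM in cortical mock, 9.55 and 6.98 CPM at 2 weeks and 3.48 and 3.27 CPM at 4 weeks. Its levels in midbrain were 22 and 16.9 CPM in mock, 24.3 and 22 CPM at 2 weeks and 12.8 and 14.1 CPM at 4 weeks. The 4-week cortical libraries were the lowest. Emilin1 fell in cortex at 4 weeks (-1.42 ± 0.28, adjusted p = 0.00209) and was at -0.13 ± 0.25 at 2 weeks (adjusted p = 0.696). In midbrain it was at 0.25 ± 0.22 at 2 weeks and -0.53 ± 0.23 at 4 weeks, adjusted p = 0.42 and 0.0897. The calls that 1 library decided in cortex at 2 weeks were those of Fbln1 (mock 1, shPTB 1 and shPTB 2, adjusted p = 0.136, 0.0981 and 0.13). Without 1 library, edgeR no longer called in cortex at 4 weeks Fbln2 (mock 1 and shPTB 2, adjusted p = 0.151 and 0.172). Other settings ended calls with scaling to total reads for Fbln1 in cortex at 2 weeks and Fbln5 in midbrain at 2 weeks (adjusted p = 0.0778 to 0.224). Under other settings calls ended with an offset for average transcript length for Efemp2 in midbrain at 2 weeks (adjusted p = 0.0997). Apart from this, calls ended with the spread of the compared groups alone for Fbln1 in cortex at 2 weeks and Fbln2 in cortex at 4 weeks (adjusted p = 0.0787 to 0.0825).

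**Figure D2:**
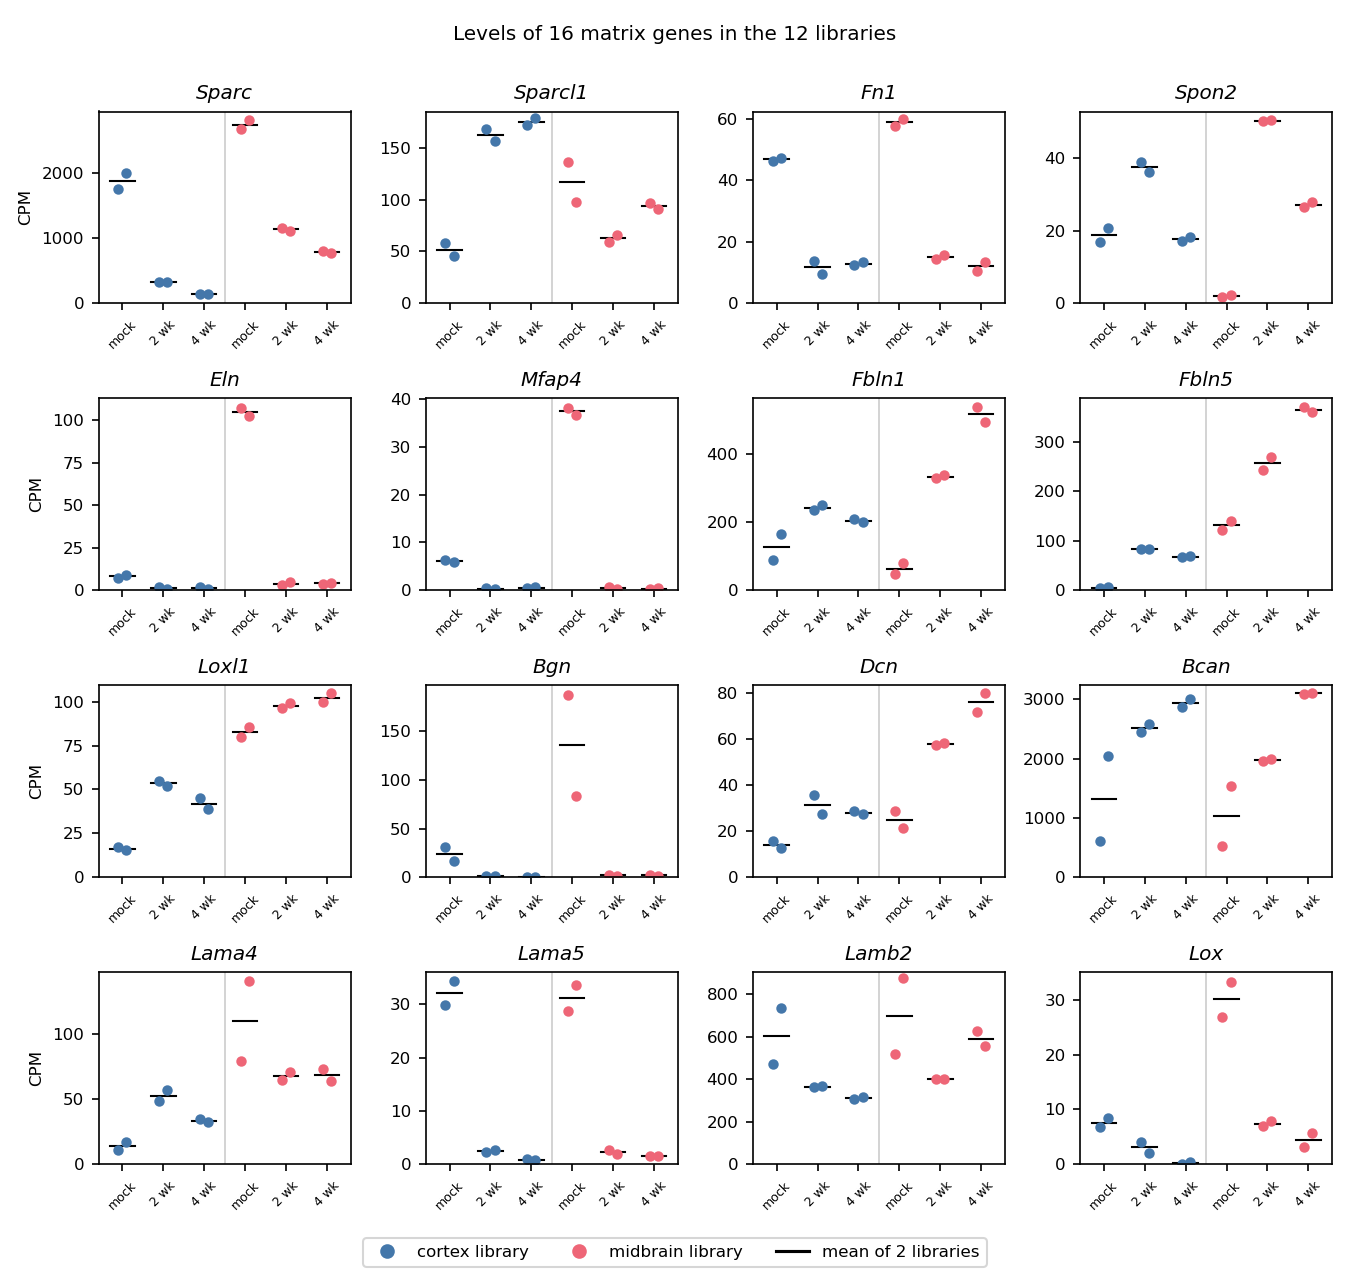
CPM on linear axes in each of the 12 libraries for 16 of the matrix genes, with 1 point per library and the 6 groups on the horizontal axis. Sparc, Fn1, Eln and Bgn lie lower in every shPTB library than in the mock libraries of the same region, while Fbln5 and Dcn lie higher.

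The lysyl oxidases, copper enzymes that crosslink collagen and elastin, were split: Lox itself fell and Loxl1 rose in cortex. Lox had 6.74 and 8.43 CPM in cortical mock, 4.12 and 2.11 CPM at 2 weeks and 0 and 0.384 CPM at 4 weeks. Midbrain libraries had 26.9 and 33.4 CPM in mock, 6.9 and 7.95 CPM at 2 weeks and 3.18 and 5.62 CPM at 4 weeks. The 4-week cortical libraries came close to 0. Lox fell in cortex at 2 weeks (-1.30 ± 0.40, adjusted p = 0.0276), and at 4 weeks, with 2 reads, it was 39.7-fold lower (95% counting interval 10.9 to 330.2, adjusted p = 0.000133). In midbrain Lox fell too (-2.02 ± 0.35 at 2 weeks and -2.77 ± 0.37 at 4 weeks, adjusted p = 0.0014 and 0.000215). Loxl1, the family member tied to elastin renewal (ENSMUSG00000032334.10, chr9:58287738-58313186, minus strand), had 17.1 and 15.4 CPM in cortical mock, 54.7 and 52.3 CPM at 2 weeks and 44.9 and 39 CPM at 4 weeks. In midbrain its values were 80.1 and 85.4 CPM in mock, 96.3 and 99.3 CPM at 2 weeks and 99.8 and 105 CPM at 4 weeks. Cortical mock stood below all other groups. Loxl1 rose in cortex (1.71 ± 0.16 at 2 weeks and 1.36 ± 0.16 at 4 weeks, adjusted p = 2.56e-05 and 8.84e-05) and was at 0.24 ± 0.16 at 2 weeks and 0.31 ± 0.16 at 4 weeks in midbrain (adjusted p = 0.261 and 0.141). Loxl3 had 18.2 and 37.1 CPM in cortical mock, 13.3 and 11.8 CPM at 2 weeks and 11.5 and 7.88 CPM at 4 weeks. Midbrain had 17.7 and 33.7 CPM in mock, 14 and 16 CPM at 2 weeks and 21.1 and 17.8 CPM at 4 weeks. It fell in cortex (-1.13 ± 0.37 at 2 weeks and -1.501 ± 0.39 at 4 weeks, adjusted p = 0.0367 and 0.00994), and was at -0.77 ± 0.36 at 2 weeks and -0.40 ± 0.36 at 4 weeks in midbrain (adjusted p = 0.126 and 0.399). Loxl2 had 18.1 and 24.2 CPM in cortical mock, 26.8 and 21.7 CPM at 2 weeks and 17.8 and 20.0 CPM at 4 weeks. Midbrain had 32 and 36.4 CPM in mock, 42.5 and 41.5 CPM at 2 weeks and 35.4 and 39.8 CPM at 4 weeks. It passed no test against mock: the log2 fold changes were 0.20 ± 0.20, -0.16 ± 0.20, 0.30 ± 0.19 and 0.14 ± 0.19, with a lowest adjusted p of 0.263. Of the 3′ words of Loxl2, 29.1% also occur in another gene, and Lox, Loxl2 and Loxl3 (with Htra2) share exonic bases with an antisense gene. Single libraries decided calls in cortex at 2 weeks: Lox (mock 2 and shPTB 2, adjusted p = 0.0589 and 0.232) and Loxl3 (mock 2, shPTB 1 and shPTB 2, 0.238, 0.123 and 0.179). In cortex at 4 weeks, 1 library less ended the calls of Loxl3 (mock 2 and shPTB 2, adjusted p = 0.0594 and 0.0956). Single libraries moved log2 fold changes to -0.54 (without mock 2) for Loxl3 in cortex at 2 weeks and -0.91 (without mock 2) for Loxl3 in cortex at 4 weeks. Calls also ended with scaling to total reads for Loxl1 in cortex at 4 weeks (adjusted p = 0.267). Other settings ended calls with the spread of the compared groups alone for Lox and Loxl3 in cortex at 2 weeks (adjusted p = 0.0533 to 0.0544).

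Of the small leucine-rich proteoglycans, which bind collagen fibrils and TGF-beta, Bgn fell and, with TMM scaling, Dcn rose in all 4 comparisons. Bgn (biglycan, ENSMUSG00000031375.17, chrX:73483602-73495933, plus strand) had 30.6 and 17.1 CPM in cortical mock, 1.12 and 1.62 CPM at 2 weeks and 0 and 0.576 CPM at 4 weeks. Midbrain values were 188 and 83.9 CPM in mock, 1.92 and 1.54 CPM at 2 weeks and 2.21 and 1.34 CPM at 4 weeks. The first mock library of each region held more than the second, and no shPTB library was above 2.21 CPM. Bgn fell in cortex at 2 weeks (-4.10 ± 0.57, adjusted p = 0.000295), and at 4 weeks, from 742 reads to 3, it was 88.6-fold lower (95% counting interval 30.2 to 430.4, adjusted p = 7.63e-05). In midbrain its log2 fold changes were -6.28 ± 0.54 at 2 weeks and -6.25 ± 0.55 at 4 weeks, adjusted p = 1.25e-05 and 1.1e-05. Dcn (decorin, ENSMUSG00000019929.16, chr10:97479609-97518143, plus strand) had 15.7 and 12.6 CPM in cortical mock, 35.8 and 27.3 CPM at 2 weeks and 28.8 and 27.3 CPM at 4 weeks. In midbrain it reached 28.8 and 21.1 CPM in mock, 57.5 and 58 CPM at 2 weeks and 71.8 and 79.8 CPM at 4 weeks. All 8 shPTB libraries were above the mock libraries of their region. Dcn rose in cortex (1.15 ± 0.21 at 2 weeks and 0.98 ± 0.22 at 4 weeks, adjusted p = 0.00194 and 0.0041) and in midbrain (1.21 ± 0.21 at 2 weeks and 1.60 ± 0.21 at 4 weeks, adjusted p = 0.0014 and 0.000188). With scaling to total reads Dcn passed in none, and its log2 fold change in cortex at 4 weeks was -0.13. Lum (lumican) lay at 0 to 1.84 CPM and passed no test against mock (lowest adjusted p = 0.108). Without 1 library, log2 fold changes moved to -5.60 (without mock 1) for Bgn in midbrain at 2 weeks and -5.57 (without mock 1) for Bgn in midbrain at 4 weeks. Under other settings calls ended with scaling to total reads for Dcn in cortex at 2 weeks, in cortex at 4 weeks, in midbrain at 2 weeks and in midbrain at 4 weeks (adjusted p = 0.0519 to 0.707).

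Among the lecticans, the chondroitin sulphate proteoglycans that bind hyaluronan, Vcan fell while Ncan and Bcan were higher or did not pass. Bcan (brevican, made by astrocytes, ENSMUSG00000004892.13, chr3:87987531-88000230, minus strand) had 605 and 2051 CPM in cortical mock, 2454 and 2579 CPM at 2 weeks and 2881 and 3010.1 CPM at 4 weeks. In midbrain it stood at 533 and 1535 CPM in mock, 1955 and 1995 CPM at 2 weeks and 3101 and 3108 CPM at 4 weeks. The mock libraries lay 3.39-fold (cortex) and 2.88-fold (midbrain) apart, the second above the first in both, and the shPTB libraries were above both. Bcan rose in midbrain at 4 weeks (1.59 ± 0.53, adjusted p = 0.0347) and did not pass in the others (0.92 ± 0.52 and 1.15 ± 0.52 in cortex and 0.93 ± 0.52 in 2-week midbrain, adjusted p = 0.192, 0.104 and 0.195). Ncan (neurocan) had 36.4 and 26.9 CPM in cortical mock, 57.7 and 52.4 CPM at 2 weeks and 48.7 and 42.9 CPM at 4 weeks. In midbrain it had 25.1 and 14.7 CPM in mock, 35.3 and 35 CPM at 2 weeks and 43.7 and 35.9 CPM at 4 weeks. Ncan rose in midbrain (0.82 ± 0.25 at 2 weeks and 0.996 ± 0.25 at 4 weeks, adjusted p = 0.0308 and 0.010) and, of the cortical groups, at 2 weeks (0.80 ± 0.25, adjusted p = 0.0301), and was at 0.53 ± 0.25 in cortex at 4 weeks (adjusted p = 0.118). Vcan (versican) had 11.9 and 7.56 CPM in cortical mock, 3.56 and 2.27 CPM at 2 weeks and 1.1 and 0.961 CPM at 4 weeks. Its midbrain levels were 17 and 9.69 CPM in mock, 5.43 and 2.54 CPM at 2 weeks and 1.93 and 1.74 CPM at 4 weeks. Every shPTB library was below the mock libraries of its region. Vcan fell in cortex (-1.75 ± 0.44 at 2 weeks and -3.23 ± 0.52 at 4 weeks, adjusted p = 0.00973 and 0.000612) and in midbrain (-1.75 ± 0.40 at 2 weeks and -2.86 ± 0.45 at 4 weeks, adjusted p = 0.00716 and 0.000576). Acan was at 0 in 9 of the 12 libraries and at most 0.187 CPM, and Hapln1 was at 0 to 0.552 CPM, so no difference was detectable for either at this depth. Markers of oligodendrocytes and their precursors (10 genes) ran beside these from 157 to 182 CPM in cortical mock to 417 to 453 and 448 to 466 CPM after shPTB, and from 247 to 290.1 to 229.5 to 235 and 258 to 269 CPM in midbrain. Of 9 tested, 7 rose and 1 fell in cortex at 2 weeks, 6 and 1 at 4 weeks, and in midbrain 5 and 1, then 2 and 1. The shares of all tested genes were 15.9 to 18.7% higher and 14.7 to 20.9% lower. The part of these markers in the lectican values was not tested. The calls that 1 library decided in cortex at 2 weeks were those of Ncan (mock 2, shPTB 1 and shPTB 2, adjusted p = 0.113, 0.143 and 0.0901) and Vcan (shPTB 2, 0.0978). Without 1 library, edgeR no longer called in midbrain at 2 weeks Ncan (mock 2, shPTB 1 and shPTB 2, adjusted p = 0.131, 0.122 and 0.116) and Vcan (shPTB 2, 0.0776). Single libraries decided calls in midbrain at 4 weeks: Bcan (mock 1, shPTB 1 and shPTB 2, adjusted p = 0.165, 0.112 and 0.112) and Ncan (shPTB 1, 0.0833). By leaving out 1 library, values moved to -2.40 (without shPTB 1) for Vcan in midbrain at 2 weeks and 2.54 (without mock 2) for Bcan in midbrain at 4 weeks. Apart from this, calls ended with scaling to total reads for Ncan in cortex at 2 weeks and in midbrain at 2 weeks and Bcan and Ncan in midbrain at 4 weeks (adjusted p = 0.117 to 0.96). Calls also ended with an offset for average transcript length for Ncan in midbrain at 2 weeks and Bcan in midbrain at 4 weeks (adjusted p = 0.063 to 0.079). Other settings ended calls with the spread of the compared groups alone for Ncan in cortex at 2 weeks, in midbrain at 2 weeks and in midbrain at 4 weeks (adjusted p = 0.052 to 0.0952).

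The basement membrane genes fell in part: of 10 tested, 2 rose and 5 fell in cortex at 2 weeks and 1 and 7 at 4 weeks, and in midbrain 1 rose and 5 fell at each time. In the same comparisons 15.9 to 18.7% of all tested genes rose and 14.7 to 20.9% fell. Laminins are trimers of an alpha, a beta and a gamma chain, joined to the rest of the sheet by nidogens and perlecan. Lama5, an alpha chain (ENSMUSG00000015647.9, chr2:180176373-180225859, minus strand), had 29.9 and 34.3 CPM in cortical mock, 2.25 and 2.6 CPM at 2 weeks and 0.916 and 0.769 CPM at 4 weeks. In midbrain the values were 28.6 and 33.6 CPM in mock, 2.6 and 1.88 CPM at 2 weeks and 1.52 and 1.47 CPM at 4 weeks. Mock and shPTB libraries lay far apart, and Lama5 fell in cortex (-3.72 ± 0.24 at 2 weeks and -5.23 ± 0.29 at 4 weeks, adjusted p = 1.96e-06 and 5.22e-07) and in midbrain (-3.79 ± 0.23 at 2 weeks and -4.37 ± 0.25 at 4 weeks, adjusted p = 1.23e-06 and 6.42e-07). Lama4, an alpha chain of vessel walls, had 10.5 and 17.3 CPM in cortical mock, 48.3 and 57 CPM at 2 weeks and 34.6 and 32.1 CPM at 4 weeks. Midbrain gave 79.4 and 141 CPM in mock, 64.7 and 70.8 CPM at 2 weeks and 73.1 and 63.7 CPM at 4 weeks. Cortical mock was the lowest group. Lama4 rose in cortex (1.92 ± 0.30 at 2 weeks and 1.27 ± 0.30 at 4 weeks, adjusted p = 0.000614 and 0.00619) and was at -0.70 ± 0.28 at 2 weeks and -0.69 ± 0.28 at 4 weeks in midbrain (adjusted p = 0.0813 and 0.0746). Lamb1, a beta chain, had 5.87 and 2.94 CPM in cortical mock, 0.936 and 1.3 CPM at 2 weeks and 1.28 and 0.192 CPM at 4 weeks. Midbrain had 14.8 and 9.05 CPM in mock, 4.3 and 4.86 CPM at 2 weeks and 1.93 and 2.28 CPM at 4 weeks. It fell in cortex (-1.97 ± 0.55 at 2 weeks and -2.55 ± 0.60 at 4 weeks, adjusted p = 0.0173 and 0.00641) and in midbrain (-1.38 ± 0.42 at 2 weeks and -2.49 ± 0.47 at 4 weeks, adjusted p = 0.0304 and 0.00188). Lamb2, the beta chain of vessels and synapses, had 474 and 736 CPM in cortical mock, 363 and 366 CPM at 2 weeks and 306 and 317 CPM at 4 weeks. Its midbrain values were 519.5 and 875 CPM in mock, 402 and 403 CPM at 2 weeks and 626 and 555 CPM at 4 weeks. Lamb2 fell in midbrain at 2 weeks (-0.79 ± 0.27, adjusted p = 0.0437) and in cortex at 4 weeks (-0.96 ± 0.27, adjusted p = 0.0156), and was at -0.73 ± 0.27 and -0.24 ± 0.27 in the others (adjusted p = 0.0542 and 0.495). Lamc1, the common gamma chain, had 28.2 and 33.9 CPM in cortical mock, 56.2 and 51 CPM at 2 weeks and 38.3 and 45.5 CPM at 4 weeks. Midbrain had 58.2 and 71.5 CPM in mock, 56.8 and 63.8 CPM at 2 weeks and 65.3 and 64.3 CPM at 4 weeks. It rose in cortex at 2 weeks (0.79 ± 0.18, adjusted p = 0.00713; -0.79 and no longer passing with an offset for transcript length) and was at 0.43 ± 0.18 at 4 weeks (adjusted p = 0.0856) and at -0.10 ± 0.18 at 2 weeks and 0.00 ± 0.18 at 4 weeks, adjusted p = 0.687 and 1.0 in midbrain. Hspg2 (perlecan) had 9.06 and 6.44 CPM in cortical mock, 3.0 and 1.3 CPM at 2 weeks and 0.366 and 1.54 CPM at 4 weeks. In midbrain it had 13.8 and 12.9 CPM in mock, 2.83 and 3.64 CPM at 2 weeks and 3.59 and 2.95 CPM at 4 weeks. The shPTB libraries were all below mock, and Hspg2 fell in cortex (-1.88 ± 0.44 at 2 weeks and -3.03 ± 0.50 at 4 weeks, adjusted p = 0.00681 and 0.000778) and in midbrain (-2.04 ± 0.39 at 2 weeks and -2.03 ± 0.40 at 4 weeks, adjusted p = 0.00259 and 0.00231). The other 4 genes lay at 0 to 7.0 CPM. Lama2 fell in all 4 comparisons (adjusted p = 0.0321, 0.0183, 0.0399 and 0.00519). From 49 reads in cortical mock, its 2 reads at 2 weeks were 9.46-fold lower (95% counting interval 2.48 to 80.3) and its 1 read at 4 weeks 17.5-fold lower (95% counting interval 3.01 to 707). In midbrain at 4 weeks 1 read was left of 79, 34.2-fold lower (95% counting interval 5.96 to 1366). Nid1 fell at 4 weeks (log2 fold change -2.73 ± 0.56 in cortex and -1.13 ± 0.35 in midbrain, adjusted p = 0.00274 and 0.0265). Nid2, from 103 reads in cortical mock, was 13.3-fold lower (95% counting interval 4.41 to 65.4) at 2 weeks and at least 12.3-fold lower at 4 weeks, against a floor of 3 reads over the group, since no read was left (adjusted p = 0.0128 and 0.00299). Lama1 rose in midbrain (1.49 ± 0.47 at 2 weeks and 2.24 ± 0.46 at 4 weeks, adjusted p = 0.032 and 0.00325). Lama2, Nid1 and Nid2 (with Rtraf) share exonic bases with an antisense gene. In cortex at 2 weeks, 1 library less ended the calls of Lama2 (mock 1, mock 2 and shPTB 2, adjusted p = 0.0529, 0.0569 and 0.202), Lamb1 (mock 1, shPTB 1 and shPTB 2, 0.0959, 0.113 and 0.0775), Lamc1 (shPTB 1, 0.0661), Nid2 (mock 1 and shPTB 2, 0.0768 and 0.0891) and Hspg2 (shPTB 2, 0.0835). The calls that 1 library decided in cortex at 4 weeks were those of Lama2 (shPTB 1 and shPTB 2, adjusted p = 0.0527 and 0.123), Lamb1 (shPTB 2, 0.0592) and Lamb2 (mock 2, shPTB 1 and shPTB 2, 0.071, 0.0992 and 0.0847). Without 1 library, edgeR no longer called in midbrain at 2 weeks Lama1 (mock 1, shPTB 1 and shPTB 2, adjusted p = 0.167, 0.0801 and 0.174), Lama2 (mock 1, shPTB 1 and shPTB 2, 0.188, 0.0791 and 0.242), Lamb1 (mock 1, shPTB 1 and shPTB 2, 0.157, 0.163 and 0.123) and Lamb2 (mock 2, shPTB 1 and shPTB 2, 0.271, 0.178 and 0.173). Single libraries decided calls in midbrain at 4 weeks: Lama2 (shPTB 2, adjusted p = 0.0536) and Nid1 (mock 1, shPTB 1 and shPTB 2, 0.0703, 0.163 and 0.0804). Single libraries moved log2 fold changes to -2.58 (without shPTB 1) for Hspg2 in cortex at 2 weeks and -1.97 (without mock 1), -4.45 (without shPTB 1) and -1.79 (without shPTB 2) for Lamb1 in cortex at 4 weeks. Without 1 library, log2 fold changes moved to -2.13 (without shPTB 1) and -3.72 (without shPTB 2) for Nid1 in cortex at 4 weeks and -2.34 (without shPTB 1) and -4.37 (without shPTB 2) for Hspg2 in cortex at 4 weeks. By leaving out 1 library, values moved to -3.30 (without shPTB 1) and -1.73 (without shPTB 2) for Lama2 in midbrain at 2 weeks. Under other settings calls ended with scaling to total reads for Lamc1 in cortex at 2 weeks, Lama4 in cortex at 4 weeks and Lama1 in midbrain at 2 weeks (adjusted p = 0.13 to 0.74). Apart from this, calls ended with an offset for average transcript length for Lama2 and Lamc1 in cortex at 2 weeks, Lama2, Lama4 and Nid1 in cortex at 4 weeks, Lama1, Lama2, Lamb1 and Lamb2 in midbrain at 2 weeks and Lama2 and Nid1 in midbrain at 4 weeks (adjusted p = 0.060 to 0.763). Calls also ended in DESeq2 for Lama1 and Lama2 in midbrain at 2 weeks and Nid1 in midbrain at 4 weeks (adjusted p = 0.0584 to 0.0683). Other settings ended calls with the spread of the compared groups alone for Lamc1 in cortex at 2 weeks and Lama1 and Lamb2 in midbrain at 2 weeks (adjusted p = 0.0542 to 0.111).

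After shPTB Sparc took a smaller and Bcan a larger share of the summed reads of the matrix genes, as a description with no test. These are shares of reads, and not of RNA molecules. How reads depend on transcript length in this protocol was not tested. The summed CPM of the 47 genes ran from 3498 to 6939 in mock and from 4126 to 6247 in shPTB libraries. Sparc took 50.0 and 35.9% of that sum in cortical mock libraries, 7.82 and 7.66% at 2 weeks and 3.49 and 3.46% at 4 weeks. In midbrain its share was 50.6 and 40.5% in mock, 24.0 and 22.8% at 2 weeks and 12.9 and 12.7% at 4 weeks. Bcan took 17.3 and 36.7% in cortical mock and 69.0 and 70.1% in cortex at 4 weeks, and 10.1 and 22.1% in midbrain mock and 49.6 and 51.0% in midbrain at 4 weeks. Lamb2 held 7.34 to 13.6% of the sum in all 12 libraries. Per length, in the deposited TPM (mean ± SD of 2 libraries), cortical mock was led by Sparc (1395 ± 297), Bcan (260.3 ± 116) and Lamb2 (84.2 ± 2.24), and midbrain mock by Sparc (2541 ± 566), Bcan (238 ± 119) and Mfap5 (143 ± 51.1), with Bgn next (138 ± 116). TPM are not TMM-scaled, so they order genes within a group and do not compare groups. They also assume that reads grow with transcript length. In the cortical mock libraries Fn1 had 46.4 and 47 CPM but 20 and 4.22 TPM. At 4 weeks the order in cortex was Bcan (131 ± 0.67), Fbln1 (61.9 ± 2.24) and Sparc (33.6 ± 0.281), and in midbrain Bcan (214 ± 1.94), Sparc (199 ± 3.66) and Fbln1 (187 ± 3.51). In midbrain mock Bcan, Mfap5 and Bgn did not differ beyond their SDs; elsewhere the 3 genes given did.

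**Figure D3:**
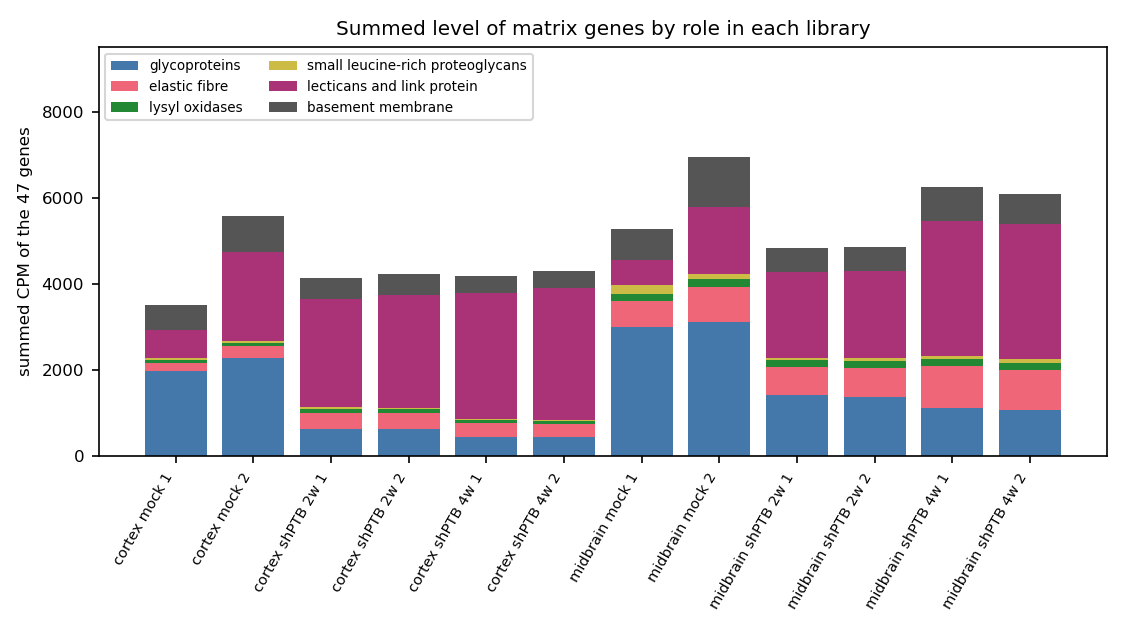
Summed CPM of the matrix genes in each of the 12 libraries, stacked by role (bars from 0). The total stays between 3498 and 6939 CPM while the glycoprotein part, led by Sparc, is smaller and the lectican part, led by Bcan, larger in the shPTB libraries.

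Mock cultures of the 2 regions already differed in this matrix. In midbrain mock 16 of 45 genes were higher than in cortical mock and 2 were lower, where 1.25% and 0.938% of all tested genes were so called. The median log2 difference of the 45 genes was 0.97, and 0 over all genes. The 16 were 3 glycoproteins, 8 elastic fibre genes, 2 lysyl oxidases, 1 proteoglycan and 2 laminin chains. Postn differed by 5.17 ± 0.42, adjusted p = 0.000101, Fbln5 by 4.70 ± 0.20, adjusted p = 1.13e-06, Eln by 3.67 ± 0.33, adjusted p = 0.000149 and Ltbp2 by 3.27 ± 0.45, adjusted p = 0.00255. Lama4 (2.99 ± 0.30, adjusted p = 0.000319), Mfap5 (2.84 ± 0.46, adjusted p = 0.00772), Mfap4 (2.63 ± 0.22, adjusted p = 0.000124) and Bgn (2.504 ± 0.42, adjusted p = 0.00971) were also higher in midbrain. Loxl1 (2.34 ± 0.17, adjusted p = 3.58e-05), Fbn1 (2.34 ± 0.22, adjusted p = 0.000197), Fbln2 (2.07 ± 0.30, adjusted p = 0.00408) and Lox (1.99 ± 0.34, adjusted p = 0.0108) followed. Smaller differences were those of Tnc (1.75 ± 0.36), Sparcl1 (1.18 ± 0.20), Emilin1 (1.10 ± 0.23) and Lamc1 (1.06 ± 0.18), with adjusted p = 0.0305, 0.0116, 0.0316 and 0.0114. The genes lower in midbrain mock were Spon2 (-3.24 ± 0.21, adjusted p = 2.45e-05) and Tnr (-1.21 ± 0.27, adjusted p = 0.0427). Sparc was at 0.55 ± 0.18, adjusted p = 0.225, Bcan at -0.36 ± 0.52, adjusted p = 1.0 and Fn1 at 0.33 ± 0.20, adjusted p = 0.745. These calls rest on a spread estimated over all 6 groups. With the spread of the 2 mock groups alone edgeR called 0 of the 45 genes (22 at an unadjusted p under 0.05) and 0 of all genes, and with the replicate number of the mock libraries as a block it called 31. The summed fibroblast, leptomeningeal and pericyte markers stood at 1182 to 1457 CPM in cortical and 2462 to 2805 CPM in midbrain mock, with 4 of the 16 tested markers higher in midbrain, 2 lower and 10 not passing; their part was not tested. Between the mock groups, 1 library less ended the calls of Tnc (cortical mock 1 and midbrain mock 2, adjusted p = 0.111 and 0.133), Emilin1 (cortical mock 2 and midbrain mock 1, 0.114 and 0.139) and Tnr (cortical mock 1, cortical mock 2 and midbrain mock 2, 0.0657, 0.0798 and 0.166). Single libraries moved log2 fold changes to 3.98 (without cortical mock 2) and 2.499 (without midbrain mock 2) for Ltbp2 and 3.64 (without cortical mock 2) and 2.16 (without midbrain mock 2) for Mfap5. Without 1 library, log2 fold changes moved to 1.81 (without midbrain mock 1) for Bgn. Under other settings calls ended with scaling to total reads for Sparcl1, Emilin1 and Tnr between the mock groups (adjusted p = 0.0543 to 0.131). Apart from this, calls ended with an offset for average transcript length for Lama4, Mfap5, Bgn, Tnc, Sparcl1, Emilin1, Lamc1 and Tnr between the mock groups (adjusted p = 0.0555 to 0.37).

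**Figure D4:**
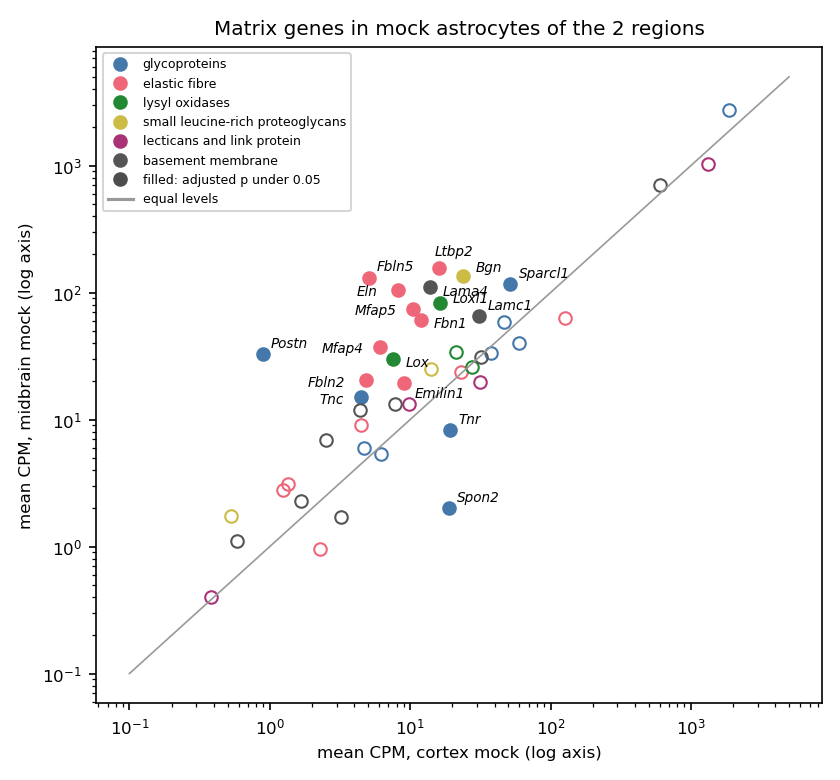
Mean CPM of the matrix genes in cortical mock (horizontal, log axis) and midbrain mock libraries (vertical, log axis), 46 genes with reads in cortical mock; the line marks equal levels and filled points an adjusted p under 0.05. Of the filled points 16 lie above the line and 2, Spon2 and Tnr, below it.

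Several genes responded to shPTB by different amounts in the regions, tested as the difference between the 2 responses. At 2 weeks 6 of 45 genes passed, 2 with a higher response in midbrain and 4 with a lower one, beside 0.424% and 0.260% of all genes. Spon2 differed by 3.66 ± 0.28, adjusted p = 0.000175 and Spon1 by 1.18 ± 0.22, adjusted p = 0.039, both towards midbrain. Fbln5 (-3.07 ± 0.25, adjusted p = 0.000204), Lama4 (-2.62 ± 0.41, adjusted p = 0.0146), Sparcl1 (-2.55 ± 0.29, adjusted p = 0.00205) and Loxl1 (-1.47 ± 0.22, adjusted p = 0.0141) had the lower response in midbrain. At 4 weeks 8 passed, 4 in each direction, beside 1.90% and 0.644% of all genes. Against the same mock libraries as at 2 weeks, Spon2 was at 3.86 ± 0.29, Spon1 at 1.59 ± 0.22, Fbln5 at -2.26 ± 0.24, Lama4 at -1.95 ± 0.41, Sparcl1 at -2.08 ± 0.29 and Loxl1 at -1.06 ± 0.22 (adjusted p = 8.66e-05, 0.00337, 0.000744, 0.0301, 0.00313 and 0.0328). Fbln1 (2.35 ± 0.42, adjusted p = 0.0127) and Sparc (1.88 ± 0.25, adjusted p = 0.00285) passed as well, beside 1.46 ± 0.41 and 1.26 ± 0.25 at 2 weeks (adjusted p = 0.202 and 0.0551). For Fbln5, Lama4, Loxl1 and Spon2 the regions differed in mock and were closer after shPTB: Spon2 differed by -3.24 ± 0.21 in mock and by 0.62 ± 0.19 at 4 weeks, and Lama4 by 2.99 ± 0.30 and 1.04 ± 0.29. Without any 1 of the 4 shPTB libraries compared, 3 genes passed at 2 weeks and 5 at 4 weeks, and without any 1 mock library 5 to 8 and 8 to 12. At 2 weeks Lama4, Loxl1 and Spon1 lost the call without any 1 shPTB library, and Spon1 also without either midbrain mock library (adjusted p = 0.0602 to 0.262). At 4 weeks Fbln1, Lama4 and Loxl1 did so, Loxl1 also without midbrain mock 2 (0.0537 to 0.194). Of the genes called against mock at 2 weeks, 18 fell in both regions, which is 90% of the 20 in cortex and 78.3% of the 23 in midbrain. At 4 weeks 19 did, 79.2% of each region's 24. Of the genes that rose, 5 did so in both regions at 2 weeks (Dcn, Fbln1, Fbln5, Ncan and Spon2; 55.6% of 9 and 62.5% of 8) and 2 at 4 weeks (Dcn and Fbln5; 40% of 5 and 25% of 8). The share of all tested genes called in both regions was not computed, so this overlap is not read as particular to the matrix genes. Same-numbered mock libraries of the regions deviated together from their group means, with a correlation of 0.715 across genes, which are not independent replicates.

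**Figure D5:**
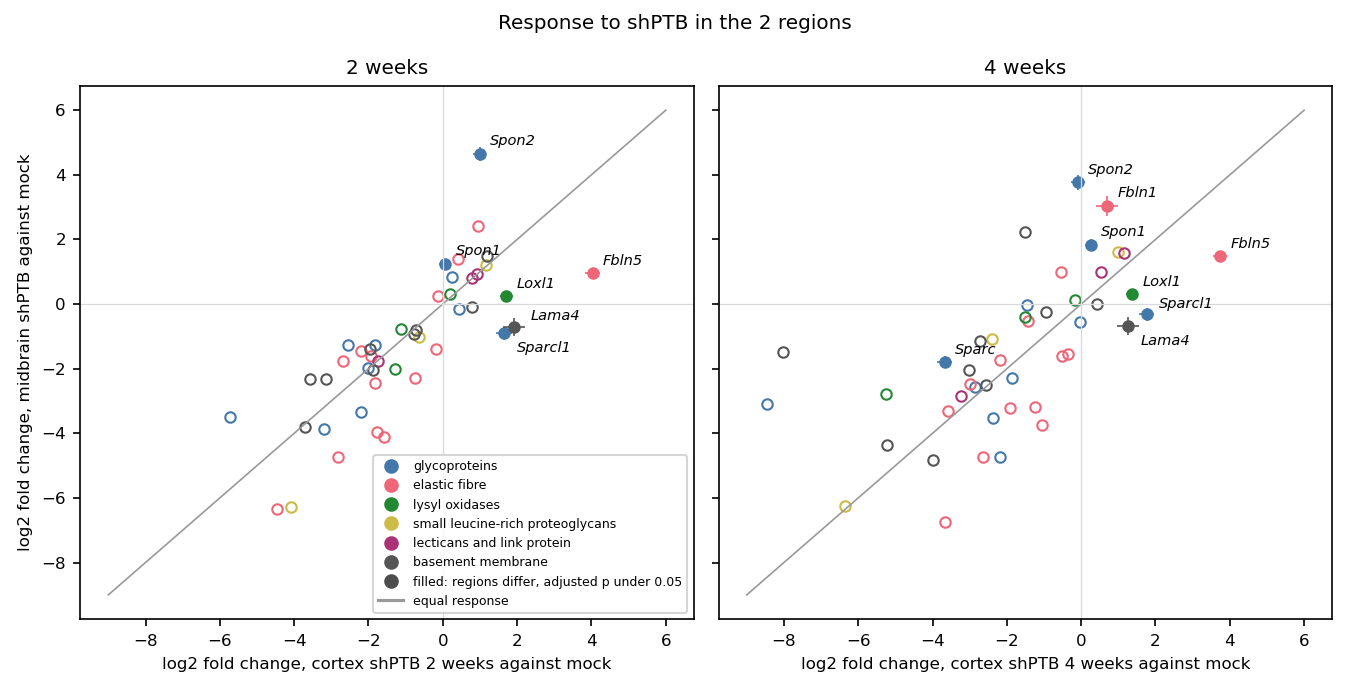
Log2 fold change against mock in cortex (horizontal) and midbrain (vertical) for the 45 tested genes, at 2 and at 4 weeks; filled points mark genes whose responses differed between regions. There are 6 filled points at 2 weeks and 8 at 4 weeks, and Spon2 and Fbln5 lie far from the diagonal on opposite sides.

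Between 2 and 4 weeks of shPTB few matrix genes were called with the spread estimated over all 6 groups, and more with that of the compared groups alone. In cortex 5 of 45 fell and 0 rose, where 2.22% and 0.548% of all genes did (10 of the 45 had an unadjusted p under 0.05 in edgeR). These were Sparc (-1.14 ± 0.18, adjusted p = 0.00881), Thbs2 (-1.70 ± 0.38, adjusted p = 0.0396), Emilin1 (-1.28 ± 0.29, adjusted p = 0.043), Spon2 (-1.08 ± 0.19, adjusted p = 0.0146) and Lox, which went from 35 reads to 2 and was 16.2-fold lower (95% counting interval 4.17 to 139, adjusted p = 0.0237). In midbrain Spon2 alone passed (-0.89 ± 0.19, adjusted p = 0.0317), beside 1.70% lower and 0.958% higher over all genes (11 of 45 at an unadjusted p under 0.05). Leaving out any 1 of the libraries compared left 0 or 1 of the 45 in cortex (7 to 10 at an unadjusted p under 0.05) and 0 in midbrain (5 to 8). Emilin1, Sparc, Spon2 and Thbs2 lost the call in cortex without any 1 of the 4 libraries, and Lox without 2-week 1 or either 4-week library (adjusted p = 0.073 to 0.289). Spon2 in midbrain lost it without any 1 (0.216 to 0.29). The spread of the compared groups alone gave 15 of 28 tested matrix genes in cortex (1 higher, 14 lower). In midbrain it gave 17 of 39 (8 higher, 9 lower). Over all genes it called 2608 in cortex and 3903 in midbrain. With scaling to total reads, 4.07% of all calls in cortex and 18.2% in midbrain were higher at 4 weeks, against 19.8 and 36.1% with TMM.

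Within the shPTB groups most matrix genes that differed between the regions were higher in midbrain. At 2 weeks 6 of 45 genes were higher in midbrain and 2 lower (2.01% and 0.931% of all genes). Sparc differed by 1.81 ± 0.18, adjusted p = 0.000769, Fbln5 by 1.63 ± 0.17, adjusted p = 0.000878, Emilin1 by 1.49 ± 0.25, adjusted p = 0.00962, Fbn1 by 1.12 ± 0.23, adjusted p = 0.0261 and Loxl1 by 0.87 ± 0.16, adjusted p = 0.0157. Postn had 40 reads in midbrain and 1 in cortex, a 25.7-fold ratio (95% counting interval 4.36 to 1040.5; adjusted p = 0.0207). Sparcl1 (-1.38 ± 0.20, adjusted p = 0.00524) and Tnr (-1.78 ± 0.28, adjusted p = 0.00778) were lower in midbrain. At 4 weeks 15 were higher and 2 lower (5.48% and 2.51% of all genes). Sparc (2.42 ± 0.19, adjusted p = 3.62e-05), Fbln5 (2.43 ± 0.17, adjusted p = 3.04e-05), Ltbp2 (1.99 ± 0.51, adjusted p = 0.0359), Emilin1 (1.99 ± 0.28, adjusted p = 0.00126) and Thbs2 (1.80 ± 0.37, adjusted p = 0.012) were higher. So were Nid1 (3.01 ± 0.56, adjusted p = 0.00711), Dcn (1.44 ± 0.21, adjusted p = 0.00186), Fbln1 (1.34 ± 0.30, adjusted p = 0.0175), Loxl1 (1.29 ± 0.16, adjusted p = 0.000651) and Fbn1 (1.17 ± 0.23, adjusted p = 0.0104). Spon1 (1.01 ± 0.16, adjusted p = 0.00249) and Loxl2 (0.99 ± 0.20, adjusted p = 0.0122) completed those with more than 3 reads in cortex. Mgp had 58 reads against 1 (42.1-fold, 95% counting interval 7.26 to 1690), Lox 65 against 2 (23.6-fold, 6.27 to 199) and Lama1 77 against 2 (27.9-fold, 7.47 to 235), with adjusted p = 0.0229, 0.00322 and 0.00202. Sparcl1 (-0.90 ± 0.20, adjusted p = 0.0195) and Tnr (-1.76 ± 0.30, adjusted p = 0.00389) were again lower in midbrain. These calls use the spread estimated over all 6 groups. With that of the compared groups alone, 27 of 39 tested matrix genes were called at 2 weeks (23 higher, 4 lower). At 4 weeks it gave 24 of 35 (22 higher, 2 lower). Over all genes it called 3209 and 3681. With total reads as the scale, 86.6% of all calls between the regions at 4 weeks were higher in midbrain, against 68.6% with TMM, and 85.6 against 74.7% in the difference of the 4-week responses. Without either cortical library 2 genes were called at 2 weeks and 9 at 4 weeks, and without either midbrain library 3 and 11. At 2 weeks Fbln5 and Sparc alone kept the call without any 1 library; Emilin1, Fbn1, Loxl1 and Sparcl1 lost it without each of the 4, Postn without all but midbrain 2 and Tnr without all but midbrain 1 (adjusted p = 0.0548 to 0.231). At 4 weeks Fbln1, Loxl2, Ltbp2, Mgp and Sparcl1 lost it without each of the 4, Fbn1 without all but midbrain 1 and Thbs2 without all but midbrain 2. Spon1 lost it without cortical 2, and Nid1 without cortical 1 (adjusted p = 0.0555 to 0.261 over these genes). The difference of Nid1 moved to 2.41 without cortical 1 and to 4.004 without cortical 2. The summed fibroblast, leptomeningeal and pericyte markers stood at 290 to 294 CPM in cortex and 563 to 582 CPM in midbrain at 2 weeks and 177 to 184 and 464 to 473 CPM at 4 weeks, with 4 and 7 of 16 higher in midbrain and 0 lower; their part was not tested.

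Other genes of matrix biology were taken from 5 lists that hold no member, and more of the matrix relatives and receptors fell than rose in each of the 4 comparisons with mock. As a scale for each list, 15.9 to 18.7% of all tested genes rose and 14.7 to 20.9% fell in these comparisons. Of 30 tested relatives of the matrix genes, 8 rose and 14 fell in cortex at 2 weeks and 7 and 19 at 4 weeks, and in midbrain 7 and 11, then 6 and 16. Igfbp7, which binds growth factors, stood at 72.3 and 151 CPM in cortical mock, 16.5 and 13 CPM at 2 weeks and 3.48 and 4.23 CPM at 4 weeks. In midbrain it stood at 279 and 554 CPM in mock, 87.2 and 87.4 CPM at 2 weeks and 37.2 and 44.3 CPM at 4 weeks. Its log2 fold changes were -2.92 ± 0.39, -4.85 ± 0.45, -2.25 ± 0.37 and -3.35 ± 0.39 (largest adjusted p = 0.00101). Prelp, a leucine-rich proteoglycan, was at -1.48 ± 0.16, -1.02 ± 0.16, -0.85 ± 0.16 and -0.57 ± 0.16 (largest adjusted p = 0.0154), and Ccdc80 at -1.500 ± 0.21, -1.61 ± 0.21, -2.72 ± 0.21 and -2.65 ± 0.21 (largest adjusted p = 0.000304). Of 24 integrins and matrix receptors, 1 rose in each comparison, and 11 and 16 fell in cortex and 9 and 12 in midbrain. Cd44, the hyaluronan receptor, had 170.3 and 242 CPM in cortical mock, 51.3 and 50.5 CPM at 2 weeks and 16.8 and 13.5 CPM at 4 weeks. Midbrain had 121 and 172 CPM in mock, 60.7 and 67.8 CPM at 2 weeks and 54.4 and 54.4 CPM at 4 weeks. Its log2 fold changes were -2.02 ± 0.23, -3.77 ± 0.26, -1.19 ± 0.23 and -1.43 ± 0.23 (largest adjusted p = 0.00253). Itgb5 and Itga3, integrin chains, were at 4 weeks at -1.60 ± 0.20 and -2.68 ± 0.34 in cortex and -1.495 ± 0.20 and -1.59 ± 0.31 in midbrain (adjusted p = 0.00011, 0.000139, 0.000185 and 0.00235). Of 20 tested proteases and inhibitors, 6 rose and 6 fell in cortex at 2 weeks, 5 and 11 at 4 weeks, and in midbrain 5 and 3, then 5 and 5. At 4 weeks Timp4, a metalloproteinase inhibitor, was at 2.42 ± 0.26 and 3.39 ± 0.27, Serpinh1, the collagen chaperone, at -3.38 ± 0.40 and -2.58 ± 0.34, and Plat, tissue plasminogen activator, at 1.46 ± 0.31 and 1.56 ± 0.28 in cortex and midbrain (largest adjusted p of the 6 values = 0.00362). Of 23 tested genes of the TGF-beta pathway, which drives matrix synthesis in many cells, 7 rose and 5 fell in cortex at 2 weeks, 4 and 9 at 4 weeks, and in midbrain 5 and 5, then 5 and 4. In cortex and midbrain at 4 weeks the ligand Tgfb2 was at 0.72 ± 0.21 and 1.18 ± 0.20. The decoy receptor Bambi was at 2.99 ± 0.23 and 2.51 ± 0.24. Nrros, which anchors latent TGF-beta on microglia, was at -1.93 ± 0.43 and -2.16 ± 0.45 (largest adjusted p of these genes = 0.0168). Of 17 tested genes of hyaluronan and chondroitin synthesis, 2 or 3 rose and 1 or 2 fell in each comparison. Chpf, B3gat3 and Chst7 were at 0.67 ± 0.21, 1.34 ± 0.24 and -2.82 ± 0.51 in cortex and at 1.16 ± 0.21, 1.45 ± 0.24 and -2.53 ± 0.48 in midbrain at 4 weeks (largest adjusted p = 0.0275). Scaled to total reads, calls ended for B3gat3, Chpf and Tgfb2 in cortex at 2 weeks, B3gat3, Chpf, Plat and Tgfb2 in cortex at 4 weeks, B3gat3, Chpf and Tgfb2 in midbrain at 2 weeks and B3gat3, Chpf, Plat and Tgfb2 in midbrain at 4 weeks. With the offset for transcript length, calls ended for Chst7 in cortex at 2 weeks, Chpf, Chst7 and Tgfb2 in cortex at 4 weeks, Chst7 and Igfbp7 in midbrain at 2 weeks and Chst7 and Prelp in midbrain at 4 weeks. Leaving out 1 library ended calls of Chst7, Nrros and Tgfb2 in cortex at 2 weeks (mock 1, mock 2, shPTB 1 and shPTB 2, adjusted p = 0.0517 to 0.132), Chpf, Plat and Tgfb2 in cortex at 4 weeks (mock 1, shPTB 1 and shPTB 2, adjusted p = 0.0666 to 0.14), Nrros and Tgfb2 in midbrain at 2 weeks (mock 1 and shPTB 1, adjusted p = 0.060 to 0.0937) and Prelp in midbrain at 4 weeks (shPTB 1 and shPTB 2, adjusted p = 0.0935 to 0.107).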

How the data were processed

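RNA of 12 astrocyte libraries (6 groups of 2) was measured from total RNA, reverse transcribed with a biotinylated primer, pulled down with streptavidin beads and copied by random priming, per the labels' protocols. Cutadapt 2.3, Salmon 0.14.1, DESeq2 and the build mm10 were used per the submitters' processing notes; the sources used here give no annotation release. Salmon made the deposited estimated counts per transcript and library, with no scaling between libraries. The deposited TPM are scaled by effective length within a library, and here they served to order genes within a library. The deposited effective lengths entered only the length offset. The TPM and the offset both assume that reads grow with transcript length, which was not tested for this protocol. The labels' protocols describe no molecular identifiers.

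Estimated counts were summed per gene with GENCODE M21 (140137 of 140658 transcripts matched), and rounded to whole numbers. Of 54356 genes, 14607 passed filterByExpr (count minimum 10, total minimum 15). TMM factors were 1.22 to 1.69 in mock libraries and 0.680 to 0.953 after shPTB. Genes were tested in R 4.3.3 with the quasi-likelihood test of edgeR 4.0.16 (limma 3.58.1) over all 12 libraries, in 11 comparisons, each adjusted by Benjamini-Hochberg over all tested genes at 0.05. The fit was tried on simulated counts with the same spread in every group. In these data the mock pairs differed more than the shPTB pairs, so that trial checks the code and not the calls. Depth was 6022098 to 11385761 reads, so that 3 reads are 0.163 to 0.576 CPM; intervals cover counting error only.

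Alternatives were RLE factors, scaling to total reads, no mitochondrial genes, no filter or one of 5 CPM in 2 libraries, DESeq2 1.42.0, a length offset, the replicate number as a block, only the groups compared, and leaving out each library. Members and lists were chosen with earlier results of these data known. All 47 genes are accounted for, and every library is given for the 35 that passed at least 1 test and reached a group mean of 10 CPM; of each further list, the 3 genes called in most comparisons with mock and of highest level are named.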

Additional observations from a re-analysis of the deposited data

Results flagged for a closer look

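These genes responded to shPTB differently in midbrain and cortex, by a test of the difference itself (edgeR's quasi-likelihood test, adjusted p under 0.05 over 14607 genes), given as midbrain minus cortex on the log2 scale. At 2 weeks the response was higher in midbrain for Spon2 (3.66) and Spon1 (1.18), and lower for Sparcl1 (-2.55), Fbln5 (-3.07), Loxl1 (-1.47) and Lama4 (-2.62). At 4 weeks it was higher in midbrain for Sparc (1.88), Spon1 (1.59), Spon2 (3.86) and Fbln1 (2.35). For Sparcl1 (-2.08), Fbln5 (-2.26), Loxl1 (-1.06) and Lama4 (-1.95) it was lower at 4 weeks. Both times are set against the same mock libraries.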

How the results depend on the processing

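Of 184 called values of the matrix genes, 184 kept their direction and side of the threshold with RLE factors, without mitochondrial genes and with the replicate number as a block, 182 with no count filter, 176 in DESeq2, 161 with scaling to total reads and 136 with an offset for transcript length. A filter at 5 CPM kept 171 of 171, the spread of the compared groups alone 145 of 183, and single libraries left out 596 of 792. Counts of called genes with 1 library left out ran from 16 to 28 (29 with all) and 21 to 31 (29) in cortex against mock at 2 and 4 weeks, 22 to 31 (31) and 27 to 33 (32) in midbrain, 16 to 18 (18) between the mock groups, 2 to 3 (8) and 9 to 11 (17) between the regions at 2 and 4 weeks, 3 to 8 (6) and 5 to 12 (8) in the difference of responses, and 0 to 1 (5) and 0 to 0 (1) between the times in cortex and midbrain (7 to 10 and 5 to 8 at an unadjusted p under 0.05 in edgeR). A group with 1 library left is assumed to vary like the others. Between the times, scaling to total reads gave 11 in cortex and 2 in midbrain, DESeq2 gave 2 in midbrain, the length offset 0 in midbrain (14 at an unadjusted p under 0.05), and the compared groups alone 15 and 17. Between the mock groups the length offset gave 10 and the compared groups alone 0 (22 at an unadjusted p under 0.05). Between the regions at 2 weeks no count filter gave 16, the length offset 5 and the compared groups alone 27, and at 4 weeks the length offset gave 11. In the difference of responses no count filter gave 13 at 2 and 14 at 4 weeks, and the compared groups alone 3 and 5. A turned sign is listed only for a value called with TMM, or for one that passed in the other direction under the new setting. Other uncalled values that turned are not listed. On these terms signs turned with scaling to total reads for Spon1 (-0.66 and -0.82 in cortex at 2 and 4 weeks), Loxl2 (-0.51 in cortex at 2 weeks, -0.73 in midbrain at 4 weeks), Dcn (-0.13), Lamc1 (-0.64), Tgfb2 (-0.33) and Chpf (-0.40) in cortex at 4 weeks and Loxl1 (-0.56) in midbrain at 4 weeks. With the length offset Lamc1 turned in cortex (-0.79 and -1.10). The cause was not tested.

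The block on replicate number gave 31 and 34 called genes in cortex against mock at 2 and 4 weeks, 33 and 32 in midbrain, 5 and 1 between the times, 19 between the mock groups, 9 and 20 between the regions at 2 and 4 weeks, and 6 and 12 in the difference of responses. Same-numbered mock libraries deviated together (correlation 0.715 across genes) and other same-numbered pairs did not (-0.03 to 0.03), so the numbers were not taken to pair the samples. Chosen after seeing the data, a block within the mock libraries alone gave 15 and 17 between the times, 31 between the mock groups, 25 and 28 between the regions and 16 and 25 in the difference of responses. Without both mock libraries numbered 1, also chosen after seeing the data, 28 genes were called between the mock groups and 15 and 22 in the difference of responses. Without both numbered 2 the difference of responses gave 16 and 19, and Lamb2 in midbrain at 4 weeks turned to 0.19.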
